A study of Mus musculus with 8 samples.

Results

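Interleukin and interleukin receptor genes were taken as all protein-coding genes whose RefSeq symbols begin with Il and a number. The rule gave 83 of 21887 protein-coding genes. They divided by known function into 37 ligands, 40 receptors or receptor subunits, 4 antagonists or binding proteins (Il1rn, Il1f5, Il18bp and Il22ra2) and 2 enzyme genes, Il4i1 and Il4i1b, which share the name but are neither. The measurements came from bisulfite sequencing of genomic DNA that had been enriched with a mouse methylation capture kit, in 8 mouse cell lines grown in DMEM with serum. Of these, 4 were IDH mutant lines from brain tumours, 2 were IDH wild-type lines from brain tumours described as RAS gliomas, and 2 were immortalized IDH wild-type astrocyte lines, PDGFA and IWT-PDGFA, of which the latter expresses exogenous wild-type IDH1. The mutant and astrocyte lines derived from N::TVA mice whose genotype contained Cdkn2alox/lox and Atrxlox/lox, and the wild-type tumour lines from N::TVA; Cdkn2alox/lox mice, all of mixed C57Bl/6, 129 and FVB/n background. TVA is the receptor that admits avian retroviral vectors. Nothing in the labels says whether lines came from separate animals.

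The values analysed were 220894 covered regions in mm10 coordinates, and the authors gave each region a single score. No score belongs to a single line. Methylation levels, differences between the groups of lines and replicate errors were therefore not analysed here, and the depth per line is unknown. A region was assigned to a gene when it shared at least 1 bp with the gene or the 1000 bp on either side. In all, 338 regions were assigned to the 83 genes, with a median score of 482 and a median width of 520 bp, against 462 and 460 bp over the whole list. Of the 338 regions, 30 (8.88%) lay also in or within 1000 bp of a protein-coding gene outside the group, and 5 were shared by members. What follows describes where the pooled list reached these genes. All comparisons are descriptions over a fixed set of genes, and none was tested.

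Interleukins are small secreted proteins through which leukocytes, and in the brain also astrocytes and microglia, signal to each other. Most bind receptors made of a specific chain and a chain shared by several cytokines, such as Il2rg (the common gamma chain), Il6st (gp130) or Il1rap, and they act through JAK kinases and STAT factors, or through MyD88 for the IL-1 family. In T cells several of the ligand genes are known for regulation by DNA methylation at their promoters. Many of the genes arose by local duplication and still lie side by side.

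Fewer of these genes had a region than protein-coding genes at large, with the lower share among the ligands. A region was present at 61 of the 83 genes (73.5%), against 83.8% of all protein-coding genes. The share was 22 of 37 (59.5%) for ligands and 35 of 40 (87.5%) for receptors. Ligand genes are short, with a median length of 6596 bp against 33834.5 bp for receptors, and short genes have fewer regions. Among genes of 5000 to 10000 bp, 6 of 13 ligands (46.2%) had a region, against 84.1% of all protein-coding genes in that range. Among genes of at most 5000 bp, 7 of 12 ligands (58.3%) had a region, against 52.7% of all protein-coding genes in that class. That class reaches down to 144 bp, whereas the shortest ligand had 1620 bp. Among genes within 1.25-fold of the length of each of these 12 ligands, the share ran from 60.1% (Il17c) to 78.9% (Il20). Receptors lay below the background by few genes at some lengths, with 9 of 11 (81.8%) against 93.8% at 20000 to 40000 bp. At 40000 to 80000 bp it was 11 of 12 (91.7%) against 97.6%. Both receptors of 5000 to 10000 bp and all 5 over 80000 bp had a region, against 84.1% and 99.5%. Averaged over the members, the share of protein-coding genes within 1.25-fold of their length that had a region was 83.1% for ligands and 94.3% for receptors, above the members' own share in both roles. Per 10 kb of gene and flanks the roles lay close together, with a median of 1.22 regions for ligands, 1.31 for receptors and 1.62 for all protein-coding genes. When each member was ranked by regions per 10 kb among protein-coding genes within 1.25-fold of its length, where 50 is the middle, the median rank was 34.8 for ligands and 37.2 for receptors, and 27 of the 83 members ranked above 50. Thus the roles lay far apart in how many genes had any region, and close together, below the middle, in density for their length.

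**Figure D1:**
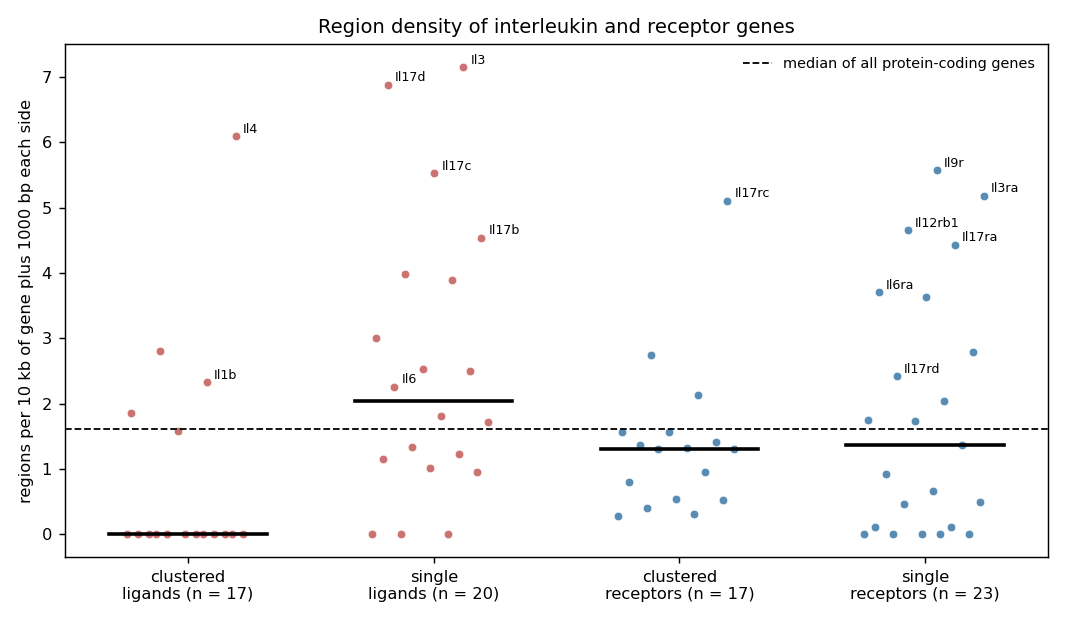
Regions per 10 kb of gene plus 1000 bp on each side (vertical axis) for every ligand and receptor gene, split by whether another member lies within 200 kb; each point is 1 gene, black bars are group medians and the dashed line is the median of all protein-coding genes, 1.62. The clustered ligands have a median of 0, and the highest values are those of Il3, Il17d and Il4.

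Ligands and receptors also differed in regions at gene starts and in the number of CpG dinucleotides there, the bases at which DNA methylation is measured. Gene starts were known for 66 members from the RefSeq promoter table (GRCm38.p6, the assembly that mm10 names), which gives 250 bases before to 50 bases after each start. A region lay within 1000 bp of a start in 36 of these 66 genes (54.5%), against 74.0% of protein-coding genes with a known start. It did so in 10 of 27 ligands (37.0%) and 23 of 34 receptors (67.6%). The other end of the gene was reached in 14 of the 66 (21.2%), against 33.8%, with 5 of 27 ligands and 6 of 34 receptors. The 300-base promoter windows held a median of 3 CpG in ligands, 6.5 in receptors and 13 over all protein-coding genes. At least 10 CpG were present in 1 ligand, Il17d, and in 13 receptors (38.2%), against 57.2% of all protein-coding genes. The window is that of the most upstream start, and within 1000 bp of that start 35 of the 66 members had a region; Il1rn, with a region at another of its starts, makes the difference from 36. All 15 members with that many CpG had a region there, as did 97.6% of all such genes, and of the 51 members with fewer, 20 (39.2%) had one, against 40.4% of all such genes. Among these CpG-poor genes the share was 9 of 26 for ligands (34.6%) and 10 of 21 for receptors (47.6%). Narrower classes held few members and lay on either side of the background by few genes. The shares were 3 of 11 members (27.3%) against 18.6% at 0 to 1 CpG and 8 of 24 (33.3%) against 34.97% at 2 to 4 CpG. At 5 to 9 CpG, 9 of 16 members (56.2%) had a start region, against 66.9%. In that last class the share was 2 of 6 ligands (33.3%) and 7 of 9 receptors (77.8%). The CpG number was not the same, since these ligands had 5 or 6 CpG and several of the receptors 7 (Il11ra1, Il17rc, Il21r and Il1rapl1). Of the 27 ligands, 26 had fewer than 10 CpG. The background shares by CpG class include olfactory, vomeronasal and predicted genes and were not recomputed without them. Over all classes the background start share rose from 74.0% to 83.2% without those genes.

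**Figure D2:**
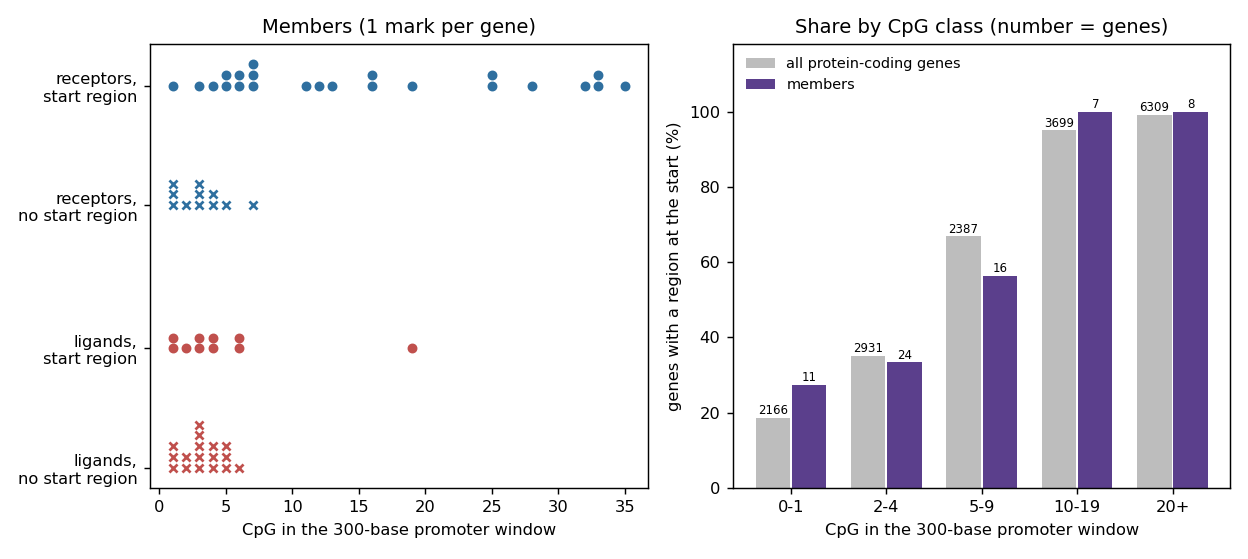
Left, the number of CpG in the 300-base promoter window (horizontal axis) of each ligand and receptor gene with a known start, with dots for genes with a region within 1000 bp of the most upstream start and crosses for genes without. Right, the share of genes with such a region (vertical axis, %) by CpG class for all protein-coding genes and for members, with the number of genes above each bar; every member with 10 or more CpG has a start region.

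The bases before the start show the contrast, with CpG dinucleotides in capitals. These are shown for ligands with few CpG (Il6, Il1b and Il2), for Il17d, and for receptors with many in the promoter window (Il6ra, Il6st and Il17rd, of which Il17rd has most of its 19 CpG beyond the bases shown) and few (Il7r). They are printed 5′ to 3′ on the strand of the gene, from RefSeq (GRCm38.p6), up to the first base of the gene record.
Il6, chr5:30012864-30013113, plus strand, 3 CpG in 250 bases.
Il6: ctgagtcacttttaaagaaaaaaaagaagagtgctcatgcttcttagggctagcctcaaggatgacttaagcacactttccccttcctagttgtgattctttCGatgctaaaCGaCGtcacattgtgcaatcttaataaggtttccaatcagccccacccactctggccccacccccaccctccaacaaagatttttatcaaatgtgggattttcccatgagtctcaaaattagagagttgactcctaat
Il1b, chr2:129371165-129371389, minus strand, 2 CpG in 225 bases.
Il1b: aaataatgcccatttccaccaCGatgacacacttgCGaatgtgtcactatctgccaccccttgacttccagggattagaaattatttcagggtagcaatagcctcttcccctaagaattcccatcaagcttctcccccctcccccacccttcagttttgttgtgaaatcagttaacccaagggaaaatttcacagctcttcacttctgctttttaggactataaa
Il2, chr3:37125955-37126204, minus strand, 2 CpG in 250 bases.
Il2: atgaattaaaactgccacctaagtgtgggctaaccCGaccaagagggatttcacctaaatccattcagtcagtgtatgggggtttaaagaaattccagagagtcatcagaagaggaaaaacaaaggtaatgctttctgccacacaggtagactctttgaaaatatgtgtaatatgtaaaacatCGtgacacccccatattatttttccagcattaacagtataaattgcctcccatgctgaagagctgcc
Il17d, chr14:57524579-57524828, plus strand, 16 CpG in 250 bases.
Il17d: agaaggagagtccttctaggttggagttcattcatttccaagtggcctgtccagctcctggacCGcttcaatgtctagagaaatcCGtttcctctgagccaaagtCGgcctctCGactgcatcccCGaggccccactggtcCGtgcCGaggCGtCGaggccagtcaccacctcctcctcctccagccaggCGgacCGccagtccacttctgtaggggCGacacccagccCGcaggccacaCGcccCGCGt
Il6ra, chr3:89913197-89913446, minus strand, 18 CpG in 250 bases.
Il6ra: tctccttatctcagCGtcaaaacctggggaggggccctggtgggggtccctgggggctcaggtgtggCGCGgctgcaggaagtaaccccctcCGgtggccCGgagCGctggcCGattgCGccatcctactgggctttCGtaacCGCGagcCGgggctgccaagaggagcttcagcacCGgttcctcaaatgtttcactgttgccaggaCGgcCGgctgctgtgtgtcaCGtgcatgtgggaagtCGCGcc
Il6st, chr13:112463820-112464069, plus strand, 26 CpG in 250 bases.
Il6st: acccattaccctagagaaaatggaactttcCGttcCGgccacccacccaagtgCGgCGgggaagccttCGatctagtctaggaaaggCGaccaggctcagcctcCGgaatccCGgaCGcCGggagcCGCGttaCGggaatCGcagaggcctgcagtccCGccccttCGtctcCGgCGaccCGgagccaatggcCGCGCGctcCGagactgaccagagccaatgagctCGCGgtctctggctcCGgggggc
Il17rd, chr14:27038751-27038963, plus strand, 6 CpG in 213 bases.
Il17rd: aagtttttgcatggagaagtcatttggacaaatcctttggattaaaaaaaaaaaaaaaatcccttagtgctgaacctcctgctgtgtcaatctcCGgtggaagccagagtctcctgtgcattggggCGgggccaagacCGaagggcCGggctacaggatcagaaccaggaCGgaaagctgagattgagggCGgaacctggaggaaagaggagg
Il7r, chr15:9529942-9530126, minus strand, 1 CpG in 185 bases.
Il7r: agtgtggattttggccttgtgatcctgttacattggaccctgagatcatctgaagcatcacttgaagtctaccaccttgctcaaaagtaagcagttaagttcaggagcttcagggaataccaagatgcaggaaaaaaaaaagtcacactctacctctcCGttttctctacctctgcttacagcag

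Among the ligands, Il3, Il4 and some members of the IL-17 family had the most regions per 10 kb. Il3, a growth factor of early blood cells, had 7.15 regions per 10 kb, the highest value of all 83 members, and its 3 regions together covered 47.9% of the gene and flanks. Il17d was the only ligand with a known start that had at least 10 CpG in the promoter window. It had 14 regions and 6.88 per 10 kb, above 99.4% of protein-coding genes of similar length. A region of 1220 bp with a score of 916 covered its start. Il4, which directs T helper cells to the type 2 fate, had 5 regions and 6.09 per 10 kb. Of these, 4 lay within 1000 bp of its 2 annotated starts, and the highest score, 958, was that of the region over the downstream start. Within 1000 bp of the most upstream start, whose promoter window held 2 CpG, lay 3 regions with scores up to 681. Il17c followed with 5.52 and Il17b with 4.54 per 10 kb. Among genes of similar length, Il4 ranked at 84.7, Il3 at 78.9, Il17c at 67.7 and Il17b at 62.9. Both regions of Il17c lay at the far end of the gene, with scores of 193 and 207, and its start had none.

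The least dense ligands that had a region at all were mostly long genes. Il16, a T cell chemoattractant encoded in 103210 bp, had 10 regions and 0.95 per 10 kb. Il12a, a subunit of IL-12, had a single region of 170 bp with a score of 175, or 1.01 per 10 kb. Il7, which sustains lymphocytes, had 5 regions (1.14 per 10 kb) with a median score of 212, and Il15, its relative, had 9 (1.22 per 10 kb). Il15 also held the highest scoring region of all members, with a score of 2216 at chr8:82387271-82388320, inside the gene. Il33, an alarmin of the IL-1 family that is abundant in astrocytes and oligodendrocytes, had 5 regions (1.33 per 10 kb), 2 of them at its starts and with a highest score of 1222. Ranked among genes of similar length, Il15 stood at 49.0, Il33 at 40.1, Il16 at 38.7, Il7 at 34.8 and Il12a at 20.5.

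Il6 and Il1b, inflammatory cytokines made by activated microglia and astrocytes, had 2 regions each and differed at the start. The first region of Il6 (chr5:30012771-30013840, score 707) covered the start and the 3 CpG of the sequence above. The other (chr5:30014331-30015190) lay 1217 to 2076 bp downstream in the gene and scored 1398, above 89.6% of regions within 50 bp of its width. At Il1b no region lay within 1000 bp of the start. Its regions began 2439 and 3449 bp downstream of the start, with scores of 1410 and 602. With widths of 700 and 600 bp, these scores were above 92.6% and 41.6% of regions of like width.

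No region was present at 22 members, of which 15 were ligands, 5 were receptors and 2 were antagonists or binding proteins. The ligands were Il17a and Il17f, the cytokines of T helper 17 cells; Il19, Il20, Il22 and Il24 of the IL-10 family; Il1a, Il1f6, Il1f8, Il1f9 and Il1f10 of the IL-1 family; the T cell growth and helper cytokines Il2, Il9 and Il21; and Il31. The receptors were Il2rg, Il7r, Il13ra2, Il20rb and Il11ra2, and the other genes were Il1f5 and Il18bp. Il11ra2 is a near-identical copy of Il11ra1, so reads may not be assigned to either with certainty, and values for both are uncertain. Of these 22 genes, 13 lay within 5000 bp of a region and 7 lay more than 10000 bp from any. Their median distance to the nearest region was 4061.5 bp, with a range of 1337 bp (Il9) to 38738 bp (Il11ra2). Over the 3545 protein-coding genes without a region the median was 13883 bp, with 894 within 5000 bp and 2066 beyond 10000 bp. Those genes were shorter (median 1971 bp against 6205.5 bp), and olfactory, vomeronasal and predicted genes were not removed from them. The promoter windows of the members without a region held at most 6 CpG (Il17a) in the 20 genes with a known start.

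Receptors ranged from nearly empty to densely covered. Il9r had 11 regions and 5.57 per 10 kb, and Il3ra, the alpha chain for IL-3, had 6 and 5.18 per 10 kb, with the most CpG of any member promoter (35). Il17rc followed with 5.11, Il12rb1 with 4.66 and Il17ra with 4.43 per 10 kb. All 5 IL-17 receptor genes had regions, as did on average 92.0% of protein-coding genes of similar length, and their median density rank among such genes was 87.9. The 9 receptor genes of the IL-1 family had regions as well, as did on average 98.0% of protein-coding genes of similar length, and their median density rank was 13.4. Of the 9, Il1rapl1 and Il1rapl2, synaptic adhesion proteins on chromosome X that span more than a megabase each, had 14 and 13 regions and 0.10 per 10 kb, the lowest density among receptors with a region. Il23r (0.28), Il21r (0.30) and Il20ra (0.40) were the next lowest. Both regions of Il20ra lay at its start, whereas the starts of Il23r and Il21r had none. On chromosome X, 3 of 5 members had a region, and the exceptions were Il2rg and Il13ra2, a decoy receptor for IL-13.

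Il6ra and Il17rd, each with 17 regions, had the most regions of any member. Il6ra, the ligand-binding chain of the IL-6 receptor, had 3.71 regions per 10 kb, above 97.4% of genes of similar length. Its scores ran from 177 to 935 with a median of 370, and the median percentile among regions of like width was 17.9. The region at the start was 1930 bp wide, began 146 bp downstream of it and scored 437, which was above 2.15% of regions of like width. Il17rd, which inhibits fibroblast growth factor signalling as well as taking part in IL-17 signalling, had 2.42 per 10 kb and ranked at 87.9. Its scores ran from 152 to 1042 with a median of 417. The regions nearest its start were narrow, with a score of 208 on the upstream side and 166 on the downstream side, and none covered the start itself. For both genes most regions lay inside the gene and more than 1000 bp from its ends, with 16 in Il6ra and 15 in Il17rd.

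**Figure D3:**
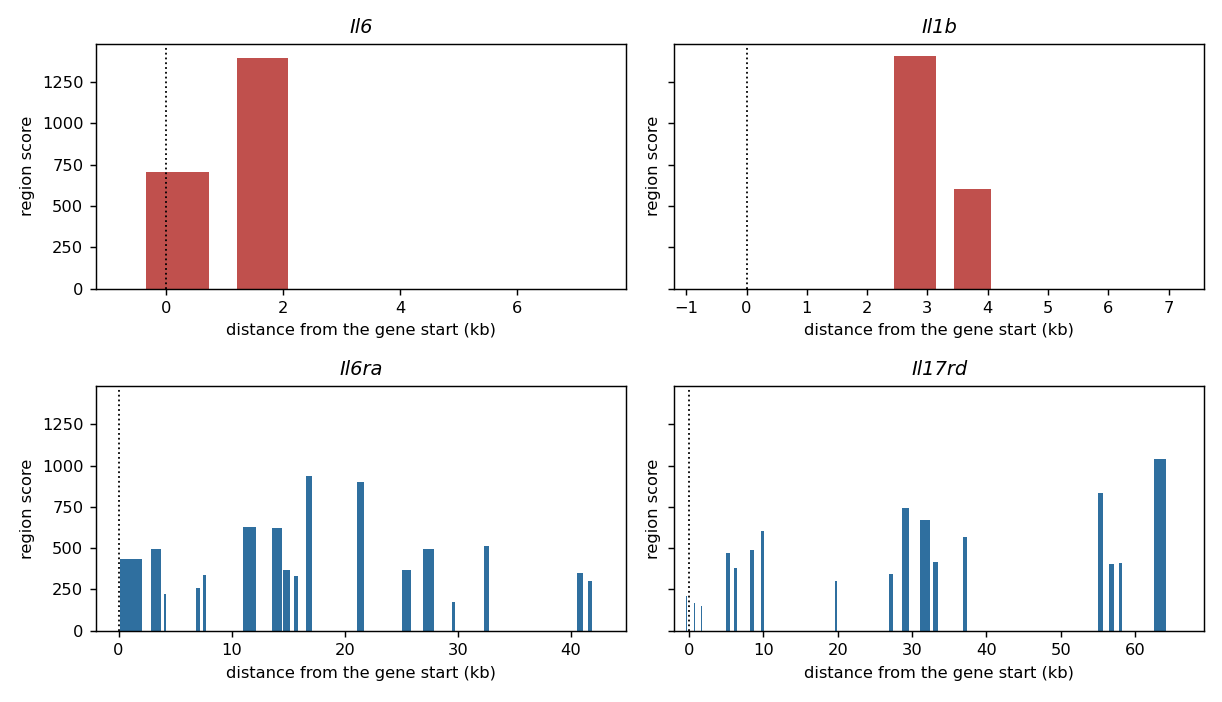
Region scores (vertical axis) of Il6, Il1b, Il6ra and Il17rd against distance from the gene start in kb, in the direction of transcription; bar width is the region width and the dotted line is the start. The start of Il6 is covered, the regions of Il1b begin 2439 bp inside the gene, and the 17 regions of each receptor are spread along it.

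Members that lie near each other were set against single genes, with a gap of at most 200 kb to another member counted as a cluster. This gave 14 clusters of 39 genes and 44 single genes. A region was present at 26 of the 39 clustered genes (66.7%) and 35 of the 44 single genes (79.5%), and the median density was 0.80 per 10 kb in clusters and 1.72 outside them. Ligands and receptors differed in opposite directions. Of 17 clustered ligands, 5 had a region (29.4%), compared with 17 of 20 single ligands (85%). Among receptors all 17 clustered genes had a region, compared with 18 of 23 single genes (78.3%). Among protein-coding genes of similar length the mean share with a region was 96.0% for the clustered and 93.1% for the single receptors, whose median lengths were 42791 and 23783 bp, so 17 of 17 is near the background. For the ligands it was 82.5% and 83.7%. The upper quartile of length was 8129 bp for clustered and 29258 bp for single ligands, and all 6 ligands over 20000 bp (Il7, Il15, Il16, Il18, Il33 and Il34) were single and had a region. Among ligands of at most 20000 bp a region was present at 5 of 17 clustered and 11 of 14 single genes (78.6%). Clustered and single ligands both had a median of 3 CpG in the promoter window.

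The 4 clusters with at least 3 members differed widely. The IL-1 receptor cluster on chromosome 1 (40084692 to 40551707) holds Il1r2, Il1r1, Il1rl2, Il1rl1, Il18r1 and Il18rap, and all 6 had regions. It contained 48 regions with a median score of 633.5, of which 35 lay in or within 1000 bp of the members. Il1r1, the signalling receptor for IL-1, had 13 regions with scores up to 1725. Il1r2, a decoy receptor that carried 16 CpG in its promoter window, had 6 with scores up to 1056. By contrast, the IL-1 family cluster on chromosome 2 (24153172 to 24351491) held 8 regions over 198320 bp, and of Il1f8, Il1f9, Il1f6, Il1f5, Il1f10 and Il1rn only Il1rn, the IL-1 receptor antagonist, had any. It had 2 regions, with scores of 610 at a start and 1586 at the far end. At the Il10 cluster (chromosome 1, 130882074 to 131024970), 8 of 10 regions lay between the genes and the other 2 in Il10 itself, and Il19, Il20 and Il24 had none.

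The type 2 helper cytokine cluster on chromosome 11 (53612460 to 53725103) was the densest of the 4, with 25 regions and 2.18 per 10 kb. It holds Il4, Il13 and Il5, all with regions, and between Il13 and Il5 the DNA repair gene Rad50, which is known to hold a control region of the cytokine genes. Rad50 held 7 regions with scores from 132 to 1100. Il5, the eosinophil growth factor, had 1 region, 777 bp from its start, with a score of 1488 that was above 96.8% of regions of like width. The single region of Il13, at the far end of the gene, was 970 bp wide with a score of 308, above 2.21% of regions of like width. The single regions of Il5 and Il13 thus scored near opposite ends of the distribution for their widths. The median percentile at matched width was 62.2 over the 5 regions of Il4 and 55.6 over the 7 of Rad50.

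**Figure D4:**
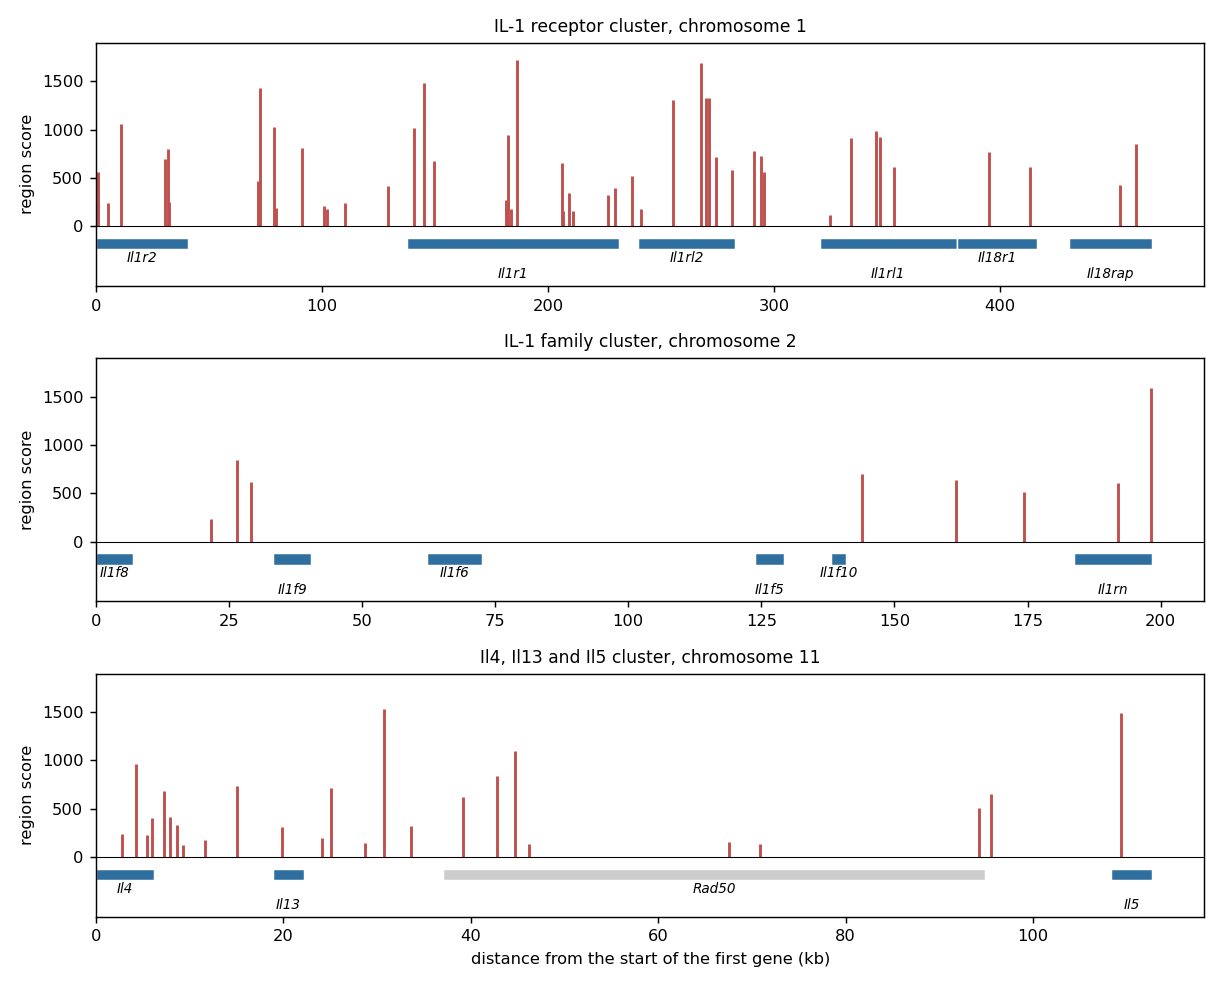
Maps of 3 clusters, with region scores (vertical axis) at the regions' midpoints against distance in kb from the start of the first gene; blue bars are member genes and the grey bar is Rad50. Regions are frequent across the IL-1 receptor cluster (48 regions) and rare in the IL-1 family cluster on chromosome 2 (8 regions), and the cluster of Il4, Il13 and Il5 holds 25.

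Scores had the same median in both roles. As deposited, the difference between clustered and single genes ran in opposite directions in ligands and receptors, but not at matched width. The median over genes of the gene's median score was 477 for ligands (22 genes) and 477 for receptors (35 genes), and 498 for all protein-coding genes with a region. Scores rise with region width, so each was also ranked among regions within 50 bp of its width; the median of these percentiles was 43.1 for ligands, 44.9 for receptors and 47.4 for all protein-coding genes with a region. The median score was 620.75 for the 26 clustered genes and 430 for the 35 single genes, with width-matched percentiles of 49.4 and 42.2 and median region widths of 585 and 495 bp. Among receptors the median was 628 in clusters and 362.5 outside them, whereas among ligands it was 407 for the 5 clustered genes and 488 for the 17 single genes. At matched width the clustered genes were the higher in both roles, with 48.8 and 38.9 for receptors and 62.2 and 42.9 for ligands. Among members with a known start, regions at starts had a median score of 565, those inside genes 482 and those at the far end 315, with width-matched percentiles of 44.5, 50.5 and 36.5.

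Among the 42 members with at least 3 regions, 28 were receptors and 12 ligands. The 5 highest median scores in this set belonged to receptors, 3 of them of the IL-1 family. The minimum left out 10 ligands with 1 or 2 regions. Of those, Il5 (1488), Il6 (1052.5) and Il1b (1006) had medians above some of these 5 receptors, and the others had 685 or less. Il1rl2, the receptor for IL-36, had 7 regions with a median score of 1302 and a range of 181 to 1686, and Il1rap, the chain that IL-1 family receptors share, had 7 with a median of 1277 and a lowest score of 996. Every region of Il1rap thus scored above the median of the whole list. Il1rl1, the receptor for IL-33, followed with 912, Il6st with 863 and Il17rb, a receptor for IL-25, with 833. Both start regions of Il6st scored high, at 1440 and 1575. At the other end lay Il11ra1 with a median of 143, Il10ra with 171, Il7 with 212, Il1rapl2 with 227 and Il2rb with 246.5. Of these, only Il7 is a ligand. These are scores as deposited, which rise with width, and at matched width the order changed. The median percentile was 25.4 for Il17rb and 36.8 for Il1rl1, below Il11ra1 (42.2) and Il1rapl2 (57.3). Il1rap (85.3), Il6st (83.7) and Il1rl2 (82.5) remained high. The highest single scores, after the region of Il15, were 2078 in Il12rb2, 1725 and 1487 in Il1r1, 1686 in Il1rl2, 1586 at Il1rn, 1575 at Il6st, 1505 in Il17ra, 1488 at Il5 and 1478 in Il9r. Even within these genes scores varied widely, from 182 to 2078 in Il12rb2 and from 162 to 2216 in Il15.

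**Figure D5:**
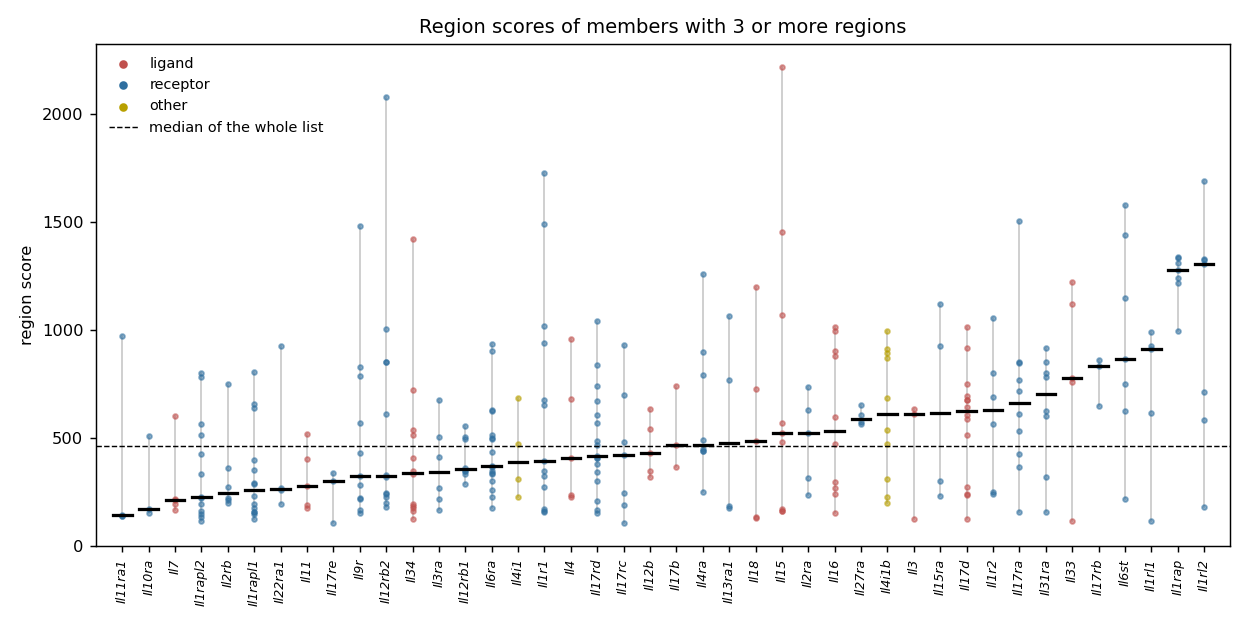
Scores of all regions (vertical axis) of the 42 members with at least 3 regions, ordered by the gene's median score (black bars); each dot is 1 region, coloured by role, and the dashed line is the median of the whole list, 462. Medians run from 143 at Il11ra1 to 1302 at Il1rl2.

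A chosen list of signalling and related genes was covered more often than the interleukin genes themselves. It held JAK and STAT genes, their inhibitors, IL-1 pathway adaptors and related cytokines and receptors without an Il name. The list was chosen with earlier results of these data known and was not matched for length (median 20882 bp, against 14615 bp for members). All 43 of its genes had a region, against 83.8% of all protein-coding genes. Without olfactory, vomeronasal and predicted genes that background was 92.4%. Their median density was 2.52 per 10 kb, and 33 of the 34 with a known start had a region there, against 74.0% of all protein-coding genes. Their promoter windows held a median of 15.5 CpG, compared with 4 in the members, and 21 of the 34 held at least 10, a class in which 97.6% of all protein-coding genes had a start region. Socs3, an inhibitor of gp130 signalling, had 11.2 regions per 10 kb and 31 CpG in its promoter window, and Stat3, the main factor downstream of IL-6, had 20 regions with scores up to 1656; these were named after their values were seen. The exception at the start was Cntf, a neurotrophic cytokine that signals through gp130, with 3 CpG.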

How the data were processed

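The 8 lines were profiled by Agilent SureSelect XT capture and bisulfite sequencing, per the labels' protocols. The submitters' processing notes name Novoalign 3.7.1, Picard and mm10; the making of regions and scores was not stated in the sources used here. In the deposited list a score covers all lines together, so per-line depth is unknown and no test was run. One part of the mouse genotype is not reported here.

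Genes came from a RefSeq table and starts, strand and promoter windows from a RefSeq promoter table, both GRCm38.p6. The promoter table was matched by symbol for 66 members; Il7, Il10, Il10ra, Il10rb, Il12rb1, Il15, Il17b, Il17ra, Il1f6, Il22ra2, Il23a, Il24, Il25, Il27, Il27ra, Il2rb and Il34 had no match. CpG were counted as the letters CG in the window of the most upstream start. Overlaps (1000 bp, at least 1 bp), percentiles within 50 bp of width and ranks within 1.25-fold of length were computed with pandas 2.3.3 in Python 3.11.15 and tested on simulated data. Coordinates count from 1. Members, roles, lists and named genes (all members without a region, the 5 highest and lowest densities in each role, the 5 highest and lowest median scores, the 10 highest regions, clusters of at least 3 members, Il6, Il1b, Il6ra and Il17rd) were chosen with earlier results of these data known. Alternatives were other windows, a score minimum, region midpoints, other cluster gaps, regions of 400 to 800 bp and omission of the Il11ra genes.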

Additional observations from a re-analysis of the deposited data

How the results depend on the processing

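Of 77 recomputed values, 75 stayed within the main value's 95% binomial interval (within 1.5-fold for counts of regions of single genes). The other 2 are the width-matched percentiles of the scores, which are on another scale (43.1 for ligands and 44.9 for receptors). The intervals were computed over genes, which are not replicates, and were wide (42.1% to 75.2% for the share of ligands). Some settings left the genes and regions as they were, such as the other cluster gaps or a changed background. The count of 75 is therefore not a measure of how stable the results are. The share of members with a region ran from 71.1% with scores of at least 200 to 77.1% with windows of 2000 bp, at which Il1a, Il9 and Il19 gained a region. Without regions that also lie at another protein-coding gene, 20 of 37 ligands had a region, and Il18 and Il25 lost theirs. Over the 18529 genes whose symbols are not those of olfactory or vomeronasal receptors or predicted genes, 92.4% had a region and 83.2% a start region; this and the previous alternative, and the shares of ligands and receptors by cluster, also over genes of at most 20000 bp, were chosen after seeing the data. Cluster gaps of 100 and 500 kb gave the same numbers of clustered and single genes as 200 kb. Counting only regions with scores of at least 200, the median density fell to 0.81 per 10 kb in ligands and 0.99 in receptors. Median scores were 589 in both roles when only regions of 400 to 800 bp were used. No paired analysis was possible because the list holds no value of a single line. No line could be left out for the same reason, so the part of each line in any score is unknown.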

Other observations

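At CpG-rich starts the regions often lay beside the start base, not over it. Of the 15 members with 10 or more CpG in the promoter window, all with a region within 1000 bp, 6 had the start base itself inside a region (Il3ra, Il4ra, Il12rb2, Il17d, Il20ra and Il22ra1). At the other 9 the nearest region edge lay 13 bp (Il1r2) to 575 bp (Il17rb) away, with 146 bp at Il6ra, 190 bp at Il6st, 245 bp at Il1rap and 251 bp at Il17rd. Of the 20 members with fewer CpG and a start region, 11 had the start base inside. Over all protein-coding genes with a start region the share was 58.9% for genes with fewer than 10 CpG, 49.0% for those with 10 or more and 36.1% for those with 20 or more. These shares were computed after the data were seen, and their cause was not tested.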
